A study of Mus musculus with 9 samples.

Results

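Valproic acid exposure was set directly against poly(I:C) exposure in the brain of mouse embryos at embryonic day 14, using the 3 valproic acid and the 3 poly(I:C) libraries of a series of 9. The members were chosen by their group labels and no expression value entered the choice. Valproic acid is an anticonvulsant that inhibits histone deacetylases, and poly(I:C) is a synthetic double-stranded RNA that is used to imitate viral infection. The other 3 libraries came from saline-treated controls, and they entered the estimate of the spread and give a reference level. All samples are labelled as mouse brain, and the design text calls the unexposed mice wildtype. The sources used here do not give dose, day of exposure, route, strain, sex or litter, nor whether embryos were pooled. Replicates are numbered 1 to 3 in each group, but no label ties them to separate embryos or litters. The p-values therefore cover the spread among these samples alone, and some of it may be technical.

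At this stage radial glia, the dividing stem cells that line the ventricles, give rise to intermediate progenitors and neurons, and the young neurons extend axons and begin to express synaptic and channel genes. Notch signalling, the subject named in the series title, holds neighbouring progenitors in the undifferentiated state while proneural factors drive differentiation. The growing brain makes its own cholesterol through the mevalonate pathway, and its blood vessels and meninges lay down basement membrane and collagen.

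The libraries held 15399974 to 19883131 counts each. Xist RNA, which coats the silenced X of females, stood at 979 to 1054 CPM (counts scaled to library size, with trimmed mean of M-values factors) in the 3 valproic acid libraries and at 1047 CPM in poly(I:C) replicate 3. It did not exceed 0.236 CPM in the others. Y-linked genes summed to 196 and 201 CPM in the other 2 poly(I:C) libraries, and to 0 in replicate 3 and under valproic acid. Among the controls, replicates 1 and 2 held Y-linked RNA, at 199 and 200 CPM, and replicate 3 had 0.0497 CPM of Xist and a Y-linked sum of 0. Sex thus differed in part with exposure, so only autosomal genes are described and the main results are also given against poly(I:C) replicate 3 alone. The tissue label was checked against markers. Neuronal Tubb3 (1906 to 2145 CPM in the 6 libraries) and forebrain Emx1 (43.6 to 57.7 CPM) were detected, whereas the 39 Hox genes in the table, which mark hindbrain and spinal cord, summed to 47 counts of 103906780 in the 6 libraries. En1, En2 and Atoh1, midbrain and hindbrain genes, did not exceed 0.548 CPM, so RNA of those regions was at or near 0 in libraries that the design text describes as whole brain.

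The 2 exposures parted along many modest differences. Of 16278 autosomal genes tested, 423 (2.60%) differed at a Benjamini-Hochberg adjusted p under 0.05 in the quasi-likelihood test of edgeR. Of these 233 (1.43%) were higher and 190 (1.17%) were lower under valproic acid. The median size was 1.27-fold among the higher and 1.22-fold among the lower genes, and 50 genes differed at least 2-fold, 35 upward and 15 downward. The 3 valproic acid and 3 poly(I:C) libraries did not overlap in 416 of the 423, against 21.9% of all autosomal genes tested. On the leading principal component of the 6 libraries, which held 39.9% of the variance, scores were 11.9 to 14 under valproic acid and -13.7 to -11.6 under poly(I:C). The count of called genes was 106 without poly(I:C) replicate 2, 161 without poly(I:C) replicate 3, 260 without poly(I:C) replicate 1, and 250, 272 and 246 without valproic acid replicates 1, 2 and 3.

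**Figure D1:**
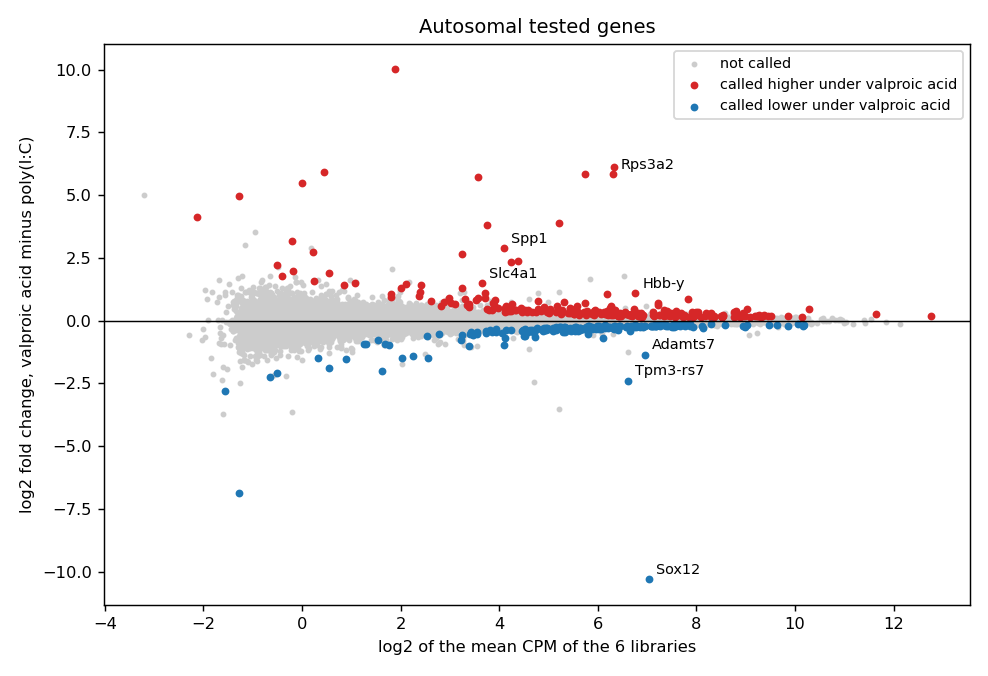
Log2 fold change of valproic acid over poly(I:C) (vertical axis) against the log2 of the mean CPM of the 6 libraries (horizontal axis), with 1 point per autosomal gene tested. Red points are the 233 genes called higher and blue points the 190 called lower under valproic acid; most lie close to 0, and labels mark some of the genes described in the text.

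Among the gene lists, those of cholesterol synthesis, glycolysis, extracellular matrix, red blood cells, ribosomal proteins and proneural factors held 68 of the 233 genes called higher under valproic acid. Lists of the neuronal cytoskeleton, the postsynapse and voltage-gated channels held 15 of the 190 called lower, so most called genes lay outside these 9 lists. Each list's count stands against the shares above and its median log2 difference against that of all autosomal genes, 0.00. The lists and their members were chosen with earlier results of these data known, so their directions are no independent evidence.

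**Figure D2:**
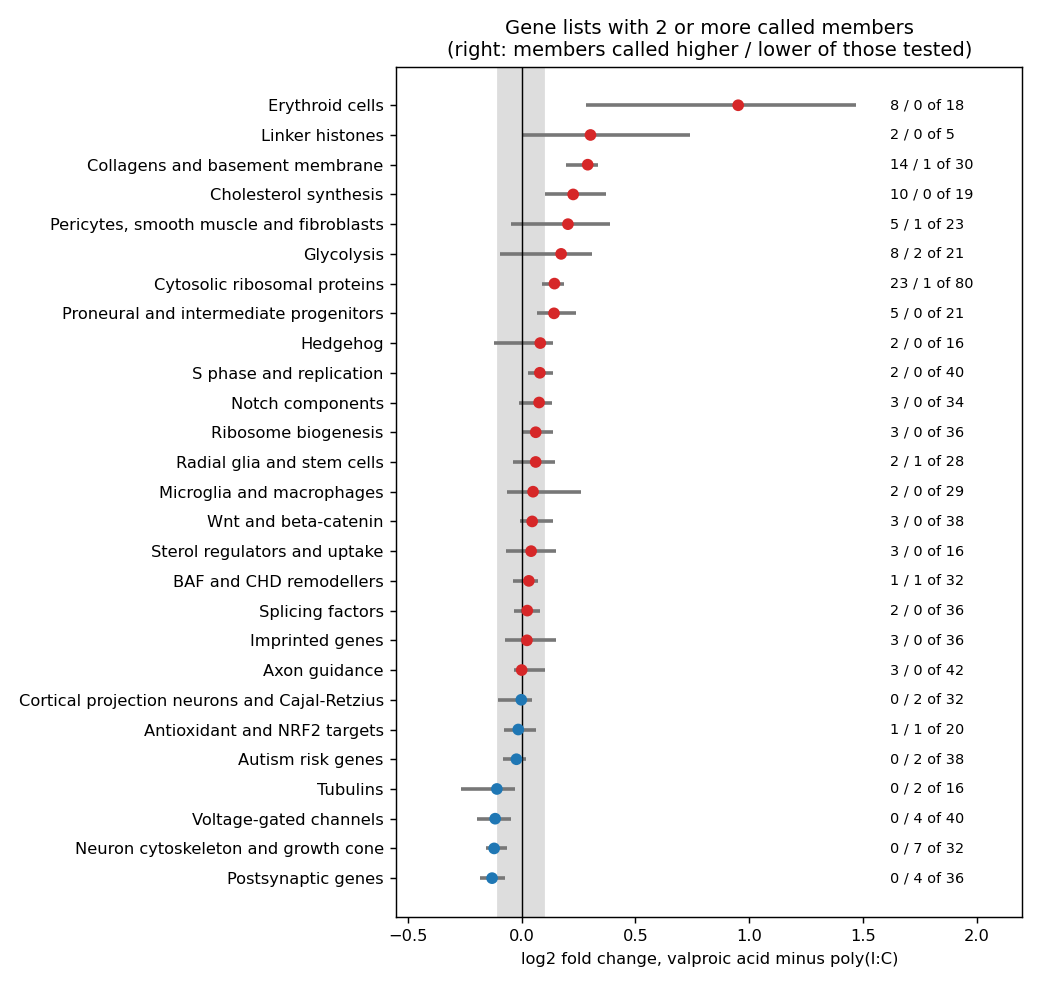
Median log2 fold change (dots) and interquartile range (lines) of each gene list with at least 2 called members, valproic acid minus poly(I:C); red dots lie above 0 and blue dots below. The grey band is the interquartile range of all autosomal genes, and the figures at the right give members called higher / called lower of those tested, as 10 / 0 of 19 for cholesterol synthesis and 0 / 7 of 32 for the neuron cytoskeleton.

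Enzymes of cholesterol synthesis were higher under valproic acid. Of 19 tested members 10 were called, all higher, 18 lay above 0 and the median log2 difference was 0.23. Lss, the cyclase that makes lanosterol, was at 90.3, 92.6 and 93.3 CPM under valproic acid and at 69.8, 67.3 and 70.1 CPM under poly(I:C), 1.33-fold higher (log2 0.41 ± 0.04 SE, edgeR adjusted p = 0.00022). Every valproic acid library lay above every poly(I:C) library by about the same distance. Mvd, which makes isopentenyl diphosphate from mevalonate diphosphate, was at 52.7, 52.2 and 48.0 CPM against 35.3, 35.0 and 36.0 CPM (1.44-fold, edgeR adjusted p = 0.00022). Idi1, the isomerase that follows it, was at 43.9, 43.4 and 42.5 CPM against 32.2, 26.9 and 26.5 CPM (1.52-fold, edgeR adjusted p = 0.00068). Hmgcs1, the synthase at the head of the pathway, was at 497, 528 and 486 CPM against 365, 404 and 400 CPM (1.29-fold, edgeR adjusted p = 0.00057). In none of these 4 genes did the groups overlap, and every control library lay below every valproic acid library, for Lss at 69.7 to 73.0 CPM. For Idi1 the controls, at 32.3 to 34.8 CPM, lay above the poly(I:C) libraries as well. Fdft1, Msmo1, Sqle and Dhcr7 were also called. The calls of Lss, Mvd, Hmgcs1 and Idi1 held without any 1 of the 9 libraries, and the count of called members was 6 to 11 over these fits, the fewest without poly(I:C) replicate 2.

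Of 16 tested regulators of sterol supply 3 were called, all higher, with a median of 0.04. Insig1, which retains the sterol sensor in the endoplasmic reticulum, was at 92.7, 78.1 and 77.1 CPM against 71.3, 56.3 and 61.4 CPM (1.31-fold, edgeR adjusted p = 0.025). Srebf2, the transcription factor of the pathway, was at 378, 388 and 386 CPM against 344, 336 and 355 CPM (1.11-fold, edgeR adjusted p = 0.031). Without poly(I:C) replicate 2 the adjusted p was 0.12 for Insig1 and 0.13 for Srebf2. Fatty acid synthesis genes had no called member of 14 by edgeR (4 at an unadjusted p under 0.05, and 2 called by DESeq2, both higher). Fasn, the fatty acid synthase, was at 561, 670 and 645 CPM against 527, 506 and 585 CPM (edgeR adjusted p = 0.083).

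The promoters of 3 of these genes are shown because the sterol factor binds such regions with partners. Of the 13 called sterol genes 8 had a promoter in the RefSeq set (GRCm38.p6, 250 bases before to 50 after the start, a build earlier than that of the counts). CCAAT, the box bound by NF-Y, was found on either strand in the promoters of 8 of these 8 genes, against 42.2% of 11384 autosomal genes with a promoter. CACCCCA, a core of the sterol regulatory element, was found in 2 of 8, against 9.60% of all. Among all 26 tested sterol genes with a promoter, called or not, CCAAT was found in 20 and CACCCCA in 4. Capitals mark both motifs and their reverse complements, which do not overlap here, each sequence running 5′ to 3′ along the gene's strand at chr13:119690101-119690400 (Hmgcs1, plus strand), chr15:82147019-82147318 (Srebf2, plus strand) and chr8:122443373-122443672 (Mvd, minus strand).
Hmgcs1: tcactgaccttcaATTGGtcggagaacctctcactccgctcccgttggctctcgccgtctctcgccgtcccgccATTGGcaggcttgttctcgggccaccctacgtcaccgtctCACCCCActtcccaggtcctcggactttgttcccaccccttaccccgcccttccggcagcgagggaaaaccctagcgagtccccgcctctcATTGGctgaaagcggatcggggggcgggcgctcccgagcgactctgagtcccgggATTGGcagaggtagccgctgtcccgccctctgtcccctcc
Srebf2: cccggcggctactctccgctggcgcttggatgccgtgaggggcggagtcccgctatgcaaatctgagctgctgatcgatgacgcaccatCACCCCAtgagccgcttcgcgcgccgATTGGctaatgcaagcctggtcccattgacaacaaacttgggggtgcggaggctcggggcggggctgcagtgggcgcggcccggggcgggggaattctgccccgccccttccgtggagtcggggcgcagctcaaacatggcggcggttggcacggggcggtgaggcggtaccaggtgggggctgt
Mvd: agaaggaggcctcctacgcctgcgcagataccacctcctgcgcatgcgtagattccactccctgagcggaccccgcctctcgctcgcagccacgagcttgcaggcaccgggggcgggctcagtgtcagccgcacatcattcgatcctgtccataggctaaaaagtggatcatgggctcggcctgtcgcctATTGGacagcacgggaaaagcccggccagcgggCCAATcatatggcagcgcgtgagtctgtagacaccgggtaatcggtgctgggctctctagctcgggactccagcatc
Hmgcs1 has 4 CCAAT boxes and 1 sterol core, Srebf2 has 1 of each, and Mvd has 2 CCAAT boxes and no sterol core in this window. A match is a description of the letters and no evidence of binding.

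Glycolytic enzymes were also higher under valproic acid. Of 21 tested members 8 were called higher and 2 lower, with a median of 0.17. Tpi1, triosephosphate isomerase, was at 290, 301 and 270 CPM against 220, 223 and 227 CPM (1.28-fold, edgeR adjusted p = 0.00066). Ldha, which makes lactate from pyruvate, was at 353, 363 and 328 CPM against 286, 269 and 277 CPM (1.26-fold, edgeR adjusted p = 0.00088). Aldoa, an aldolase, was at 273, 289 and 251 CPM against 213, 205 and 218 CPM (1.28-fold, edgeR adjusted p = 0.0021). The groups did not overlap in these genes, and their calls held without any 1 library. Pgam1, Eno1, Pkm and Pfkl, further enzymes of the pathway, and Slc16a3, a lactate exporter, were the other members called higher. Hk1, the hexokinase of neurons, and Slc2a3, the neuronal glucose transporter, were called lower: Hk1 was at 150, 160 and 157 CPM against 173, 182 and 180 CPM (edgeR adjusted p = 0.025). Without poly(I:C) replicate 2 the list had 5 called higher and 0 called lower. Gapdh, another enzyme of the pathway, was at 115, 9.16 and 8.35 CPM within poly(I:C), and its many near-identical copies make these values uncertain.

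The hypoxia response list had 1 called member of 24, Pdk1, a pyruvate dehydrogenase kinase. It was at 39.8, 37.1 and 29.0 CPM against 25.2, 24.6 and 23.2 CPM (1.45-fold, edgeR adjusted p = 0.034, and 0.12 without poly(I:C) replicate 2). Nuclear-encoded respiratory chain genes had no called member of 79 by edgeR (14 at an unadjusted p under 0.05, and 1 called higher by DESeq2). Txnip, a glucose-induced inhibitor of glucose uptake looked up after its values were seen, was at 96.0, 89.2 and 91.7 CPM against 62.8, 61.6 and 59.8 CPM (log2 0.59 ± 0.05 SE, edgeR adjusted p = 9.4e-06). Arrdc4, a relative of Txnip that was also looked up, was at 58.0, 55.4 and 50.1 CPM against 40.5, 43.0 and 43.6 CPM (edgeR adjusted p = 0.013). The motif ACGTG, the core of the hypoxia response element, was found in a promoter of 5 of the 8 glycolysis genes called higher, against 28.5% of all genes. These 8 genes have 14 promoters, of which 6 held the motif (42.9%), against 24.4% of all promoters. Glycolysis genes that were not called were not searched as a set, and a match is no evidence of binding. The Ldha promoter at chr7:46845554-46845853 (GRCm38.p6, plus strand) is shown because it holds the most matches, 5 on both strands, of which 2 pairs overlap as palindromes; capitals mark them.
Ldha: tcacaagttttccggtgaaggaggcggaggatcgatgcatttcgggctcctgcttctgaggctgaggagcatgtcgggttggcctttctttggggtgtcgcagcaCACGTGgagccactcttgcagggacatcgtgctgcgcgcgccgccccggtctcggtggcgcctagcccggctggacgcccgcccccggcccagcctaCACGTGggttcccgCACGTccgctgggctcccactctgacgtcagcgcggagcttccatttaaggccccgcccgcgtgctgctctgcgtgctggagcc

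Genes of the extracellular matrix made up the list with the most called members after the ribosomal proteins. Of 30 tested collagen and basement membrane genes 14 were called higher and 1 lower, with a median of 0.29. Fn1, fibronectin, was at 222, 213 and 225 CPM against 163, 161 and 174 CPM (1.33-fold, edgeR adjusted p = 0.00022). Fbn2, a microfibril protein, was at 61.6, 61.5 and 64.8 CPM against 45.8, 46.3 and 50.2 CPM (1.32-fold, edgeR adjusted p = 0.0026). Col1a1, the chain of fibrous collagen made by fibroblasts, was at 209, 164 and 186 CPM against 124, 144 and 145 CPM (1.35-fold, edgeR adjusted p = 0.011). The valproic acid libraries lay above the poly(I:C) libraries in each of these, with the widest spread in Col1a1. Col4a2, a basement membrane collagen, was at 263, 269 and 308 CPM against 224, 226 and 237 CPM (edgeR adjusted p = 0.011, and 0.059 without poly(I:C) replicate 2). Tnc, a matrix protein of radial glia, went the other way, at 68.1, 74.6 and 81.6 CPM against 86.2, 98.3 and 101 CPM (edgeR adjusted p = 0.032, and 0.14 without poly(I:C) replicate 2). Without poly(I:C) replicate 2 the list had 4 members called higher.

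Markers of cells that make matrix were tested beside it. Of 23 pericyte, smooth muscle and fibroblast markers 5 were called higher, Lum, Cyp1b1, Dcn, Col1a1 and Col3a1, of which the last 2 are also in the matrix list, and 1 lower, Acta2, the actin of smooth muscle. Lum, a matrix proteoglycan of fibroblasts, was at 25.5, 20.3 and 23.7 CPM against 17.5, 16.4 and 17.1 CPM. Acta2 was at 2.57, 2.39 and 1.90 CPM against 5.04, 4.77 and 3.71 CPM (edgeR adjusted p = 0.023, and 0.099 without poly(I:C) replicate 2). The count called higher was 1 without poly(I:C) replicate 2, and 0 against poly(I:C) replicate 3 alone and with Xist or Y-linked expression as a covariate. All 24 markers were detected. The summed level of the 23 that passed the filter was 1003 to 1266 CPM under valproic acid, 925 to 968 CPM under poly(I:C) and 1059 to 1116 CPM in controls. Endothelial markers had 1 called member of 21, Pecam1, a junction protein, at 40.3, 42.8 and 42.0 CPM against 36.1, 34.9 and 32.8 CPM (edgeR adjusted p = 0.033, and 0.12 without poly(I:C) replicate 3). The summed level of the 22 endothelial markers tested on any chromosome was 570 to 611 CPM under valproic acid and 542 to 566 CPM under poly(I:C). By edgeR no marker of choroid plexus (18 tested) or of skin, muscle, cartilage and bone (11 tested) was called, 0 of either had an unadjusted p under 0.05, and DESeq2 called 0. In bulk tissue, more cells of a type and more RNA per cell cannot be told apart, and the part of these cells in the matrix result was not tested.

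Red cell genes were the list with the largest median, 0.95, with 8 of 18 called, all higher. Slc4a1, the erythrocyte chloride-bicarbonate exchanger, was at 19.2, 18.7 and 17.6 CPM against 6.45, 4.72 and 8.53 CPM (2.83-fold, edgeR adjusted p = 0.00022), and its call held without any 1 library. Hba-x, an embryonic alpha-type globin, was at 22.1, 17.1 and 14.5 CPM against 10.7, 7.62 and 6.76 CPM (2.14-fold, edgeR adjusted p = 0.0068). Hbb-y, an embryonic beta-type globin, was at 187, 159 and 98.4 CPM against 91.5, 57.6 and 58.5 CPM (edgeR adjusted p = 0.016, and 0.090 without poly(I:C) replicate 2). The summed level of the 19 red cell markers tested on any chromosome was 2397 to 2761 CPM under valproic acid, 1519 to 2137 CPM under poly(I:C) and 1934 to 2220 CPM in controls. Hbb-bh2 was at 0 in the 6 libraries. The blood content of the samples was not measured, so its part in these values was not tested. By DESeq2 the median was 0.45 with 5 called members. The median was 0.66 without poly(I:C) replicate 3, and 2 members were called without poly(I:C) replicate 2.

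Ribosomal protein genes formed the largest group of called members. Of 80 cytosolic ribosomal protein genes tested, 23 were called higher and 1 lower, 71 lay above 0 and the median was 0.14. The 23 include Rps3a2 and Rps3a3, annotated as processed pseudogenes and described below, whose calls held without any 1 library. Rps7, a small subunit protein, was at 474, 512 and 477 CPM against 392, 372 and 380 CPM (1.28-fold, edgeR adjusted p = 0.0049). Rpl4, a large subunit protein, was at 972, 1012 and 977 CPM against 885, 874 and 868 CPM (1.13-fold, edgeR adjusted p = 0.010). Eef1a1, the elongation factor that brings transfer RNA to the ribosome, was at 7098, 7686 and 7290 CPM against 6609, 6449 and 6532 CPM (1.13-fold, edgeR adjusted p = 0.0060), and was the 1 called of 64 initiation and elongation factors. These genes have many processed copies in the genome that can share reads. The count of ribosomal members called higher was 5 without poly(I:C) replicate 2, with Rps3a2 and Rps3a3 among them. The median was 0.13 to 0.17 over the 9 fits that each left out 1 library.

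Ribosome biogenesis had 3 called members of 36, all higher, with a median of 0.06. Mybbp1a, a nucleolar protein, was at 191, 190 and 187 CPM against 166, 163 and 166 CPM (1.15-fold, edgeR adjusted p = 0.0099, and 0.054 without poly(I:C) replicate 2). Nat10, an RNA acetyltransferase, and Ncl, nucleolin, were the others, at adjusted p of 0.035 and 0.045 by edgeR, and 0.13 and 0.14 without poly(I:C) replicate 2. By edgeR, mitochondrial ribosomal proteins had no called member of 79 (6 at an unadjusted p under 0.05) and transfer RNA synthetases none of 18 (2 at an unadjusted p under 0.05), and DESeq2 called 0 in both. Members were thus called in the cytosolic ribosome and not in the mitochondrial one. Of the 79 mitochondrial genes 64 also lay above 0, with a median of 0.05, and the difference between the lists was not tested.

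**Figure D3:**
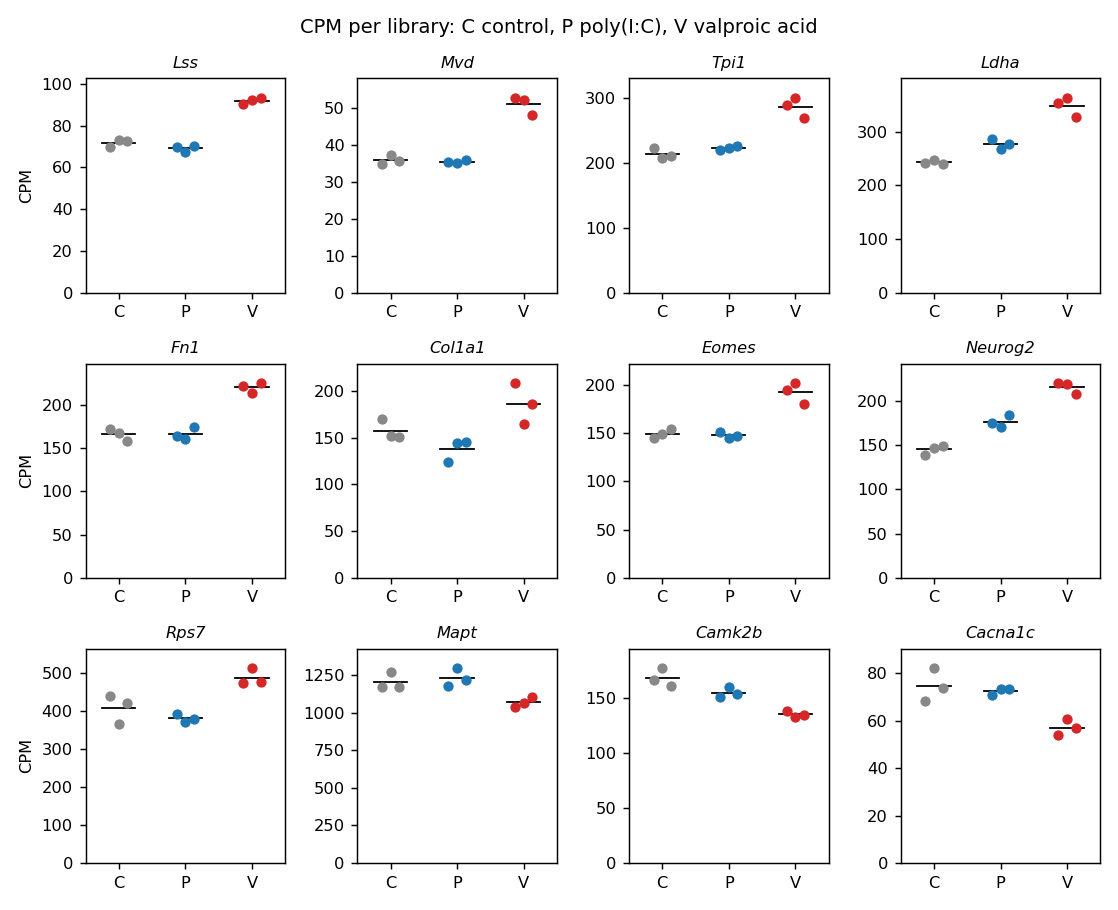
CPM of 12 genes in each library (points) with the group mean (line), for control (C), poly(I:C) (P) and valproic acid (V); each vertical axis starts at 0. From Lss to Rps7 the valproic acid libraries lie highest, except in Col1a1, where valproic acid replicate 2 (164 CPM) lies below control replicate 1 (170 CPM). In Mapt, Camk2b and Cacna1c the valproic acid libraries lie lowest, while control and poly(I:C) libraries are near each other in most panels.

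Factors that commit progenitors to the excitatory neuron lineage were higher under valproic acid. Of 21 proneural and intermediate progenitor genes tested 5 were called, all higher, with a median of 0.14. Eomes, the factor that marks intermediate progenitors, was at 195, 202 and 180 CPM against 151, 145 and 147 CPM (1.31-fold, edgeR adjusted p = 0.00045). Neurog2, the proneural factor that acts before it, was at 220, 219 and 208 CPM against 175, 170 and 184 CPM (1.22-fold, edgeR adjusted p = 0.0025). Hes6, which counters Hes1 and promotes differentiation, was at 125, 124 and 121 CPM against 101, 96.4 and 105 CPM (1.22-fold, edgeR adjusted p = 0.0041). The groups did not overlap and these 3 calls held without any 1 library. For Neurog2 the controls, at 139, 147 and 149 CPM, lay below both exposures. The count of called members was 3 to 5 over the fits that each left out 1 library.

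Radial glia genes had 2 members called higher and 1 lower of 28, with a median of 0.06. Vim, an intermediate filament of radial glia, was at 722, 688 and 697 CPM against 619, 608 and 602 CPM (1.15-fold, edgeR adjusted p = 0.0061), and the lower one was Tnc, given above. DNA replication genes had 2 called members of 40, both higher, E2f1, a cell cycle factor, and Mcm5, a subunit of the replicative helicase (edgeR adjusted p = 0.029 and 0.043, and 0.084 and 0.17 without poly(I:C) replicate 2). By edgeR, mitosis genes had no called member of 43 (5 at an unadjusted p under 0.05, and 1 called higher by DESeq2). Mki67, a marker of cycling cells, was at 220, 266 and 224 CPM against 206, 183 and 228 CPM, and the groups overlapped.

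Receptors and ligands of the Notch pathway were higher in 3 of 34 tested components, with a median of 0.08. Notch2, a receptor, was at 105, 137 and 130 CPM against 91.5, 89.0 and 85.3 CPM (1.4-fold, edgeR adjusted p = 0.0044), and its call held without any 1 library. Notch1, the main receptor of neural progenitors, was at 174, 206 and 183 CPM against 162, 151 and 164 CPM (1.18-fold, edgeR adjusted p = 0.044). Dll1, a ligand made by committed progenitors, was at 75.9, 83.8 and 80.7 CPM against 70.8, 65.0 and 67.8 CPM (1.18-fold, edgeR adjusted p = 0.025). Without poly(I:C) replicate 2 the adjusted p was 0.19 for Notch1 and 0.13 for Dll1. By edgeR none of 9 tested Notch targets was called (2 at an unadjusted p under 0.05, and 0 called by DESeq2), which at a background of 2.60% says little of so short a list. Their median was -0.02, and 0.08 against poly(I:C) replicate 3 alone, and the difference from the components was not tested. Hes1, a repressor induced by Notch, was at 15.3, 15 and 16 CPM against 17.4, 18 and 18.1 CPM (log2 -0.21 ± 0.09 SE, edgeR adjusted p = 0.26). Hes5, a second repressor of this family, stood at 17.7, 21.7 and 16.8 CPM against 20.6, 18.9 and 17.8 CPM (log2 -0.03 ± 0.14 SE, edgeR adjusted p = 0.95).

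Other signalling lists held called members too. Wnt genes had 3 of 38 called, all higher: the receptors Fzd8 and Fzd2 and the secreted inhibitor Sfrp1. Fzd8 was at 80.5, 87.0 and 82.3 CPM against 72.6, 66.2 and 67.9 CPM (1.21-fold, edgeR adjusted p = 0.013, and 0.075 without poly(I:C) replicate 2). Hedgehog genes had 2 of 16 called, both higher: Smo, the signal transducer, and Gas1, a co-receptor. Fgfr3, a fibroblast growth factor receptor of cortical progenitors, was at 112, 110 and 110 CPM against 97.1, 98.6 and 94.8 CPM (edgeR adjusted p = 0.026, and 0.077 without poly(I:C) replicate 2). Smad1, which carries bone morphogenetic protein signals, was the 1 called member of 21 in its list and was lower.

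Genes of differentiated neurons were lower under valproic acid. Of 32 neuron cytoskeleton and growth cone genes tested 7 were called, all lower, 3 lay above 0 and the median was -0.12. Stmn4, a tubulin-binding stathmin, was at 218, 225 and 209 CPM against 246, 251 and 250 CPM (log2 -0.20 ± 0.04 SE, edgeR adjusted p = 0.013). Gap43, a growth cone protein, was at 437, 460 and 469 CPM against 520, 556 and 504 CPM (log2 -0.21 ± 0.04 SE, edgeR adjusted p = 0.018). Mapt, the axonal microtubule protein tau, was at 1040, 1068 and 1107 CPM against 1176, 1298 and 1218 CPM (log2 -0.20 ± 0.04 SE, edgeR adjusted p = 0.025). In each of these the highest valproic acid library lay below the lowest poly(I:C) library. Rtn1, Mllt11, Map2 and Stmn3 were the others called. Among 16 tubulin genes 2 were called, both lower. Tubb4a, a beta-tubulin, was at 218, 225 and 221 CPM against 264, 282 and 252 CPM (edgeR adjusted p = 0.0099, and 0.058 without poly(I:C) replicate 2). Without poly(I:C) replicate 2 no member of the cytoskeleton list was called, with Mapt at an adjusted p of 0.13 by edgeR.

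All 36 tested postsynaptic genes lay below 0, 4 were called lower, and the median was -0.13. Camk2b, a calcium-dependent kinase, was at 138, 133 and 134 CPM against 151, 160 and 154 CPM (log2 -0.20 ± 0.04 SE, edgeR adjusted p = 0.028). Grm5, a glutamate receptor, and Shank2, a scaffold of the postsynaptic density, were also called. Of 40 voltage-gated channel genes 4 were called, all lower, with a median of -0.12. Cacna1c, a calcium channel subunit, was at 53.8, 60.6 and 56.8 CPM against 70.8, 73.3 and 73.2 CPM (1.27-fold lower, edgeR adjusted p = 0.016, and 0.075 without poly(I:C) replicate 2). Cacna1d, its close relative, was at 26.8, 26.0 and 27.8 CPM against 31.8, 35.3 and 36.2 CPM, and Kcnd2 and Scn3a, a potassium and a sodium channel, were also called. Presynaptic genes had 1 called member of 32, Sncb, lower, with a median of -0.07. Without poly(I:C) replicate 2 no postsynaptic gene and 1 channel gene was called.

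Long genes, many of which are neuronal, lay lower as a class. Among protein-coding autosomal genes whose annotated span exceeds 300 kb, 35.9% of 501 lay above 0, 5 were called higher and 18 lower, and the median was -0.05. Among 3203 genes of at most 10 kb, 53.9% lay above 0, 73 were called higher and 28 lower, and the median was 0.01. Markers of cortical projection neurons had 2 called members of 32, both lower, among them Tle4, a deep-layer corepressor (edgeR adjusted p = 0.026, and 0.14 without poly(I:C) replicate 2). By edgeR no gene was called of 27 GABAergic and ganglionic eminence markers (2 at an unadjusted p under 0.05), of 18 forebrain patterning genes (3), or of 25 thalamic and hypothalamic markers (3), and DESeq2 called 1 forebrain gene and 0 of the others.

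By edgeR with the filter on low counts and all 9 libraries, none of the interferon, sensor, cytokine and microglia lists had a member called higher under poly(I:C), the viral mimic. DESeq2 called 1 microglia marker higher under poly(I:C), as did edgeR without valproic acid replicate 2, and with Y-linked expression as a covariate edgeR called 1 interferon gene so. With no filter edgeR called 2 microglia markers and 1 interferon gene higher under poly(I:C). Of 27 tested interferon response genes 1 was called, Bst2, a membrane protein that tethers virus particles, and it was higher under valproic acid, at 7.29, 6.75 and 7.78 CPM against 2.65, 3.73 and 3.35 CPM (2.24-fold, edgeR adjusted p = 0.0055). Of the 27, 25 lay above 0, with a median of 0.48. The summed level of these 27, of 40 listed genes, was 209 to 217 CPM under valproic acid, 157 to 190 CPM under poly(I:C) and 193 to 201 CPM in controls. Most members are at few counts in these libraries, and by DESeq2 the median was 0.22. Ube2l6, an enzyme of the interferon-induced ISG15 pathway, was at 8.05, 3.49 and 5.82 CPM against 2.33, 2.47 and 2.12 CPM (edgeR adjusted p = 0.017, and 0.065 without poly(I:C) replicate 2). By edgeR no double-stranded RNA sensor of 18 was called (5 at an unadjusted p under 0.05, and 1 called higher by DESeq2) and no cytokine or NF-kB gene of 16 (0 at an unadjusted p under 0.05, and 0 called by DESeq2).

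Microglia and macrophage markers had 2 called members of 29, both higher, and a median of 0.05. Spp1, osteopontin, a secreted protein of activated macrophages and of bone, was at 27.1, 34.0 and 29.5 CPM against 3.57, 4.0 and 4.65 CPM (7.42-fold, edgeR adjusted p = 1.6e-06), and controls were at 2.93 to 6.48 CPM. Cd14, a co-receptor for bacterial lipopolysaccharide, was at 1.69, 1.75 and 1.90 CPM against 0.596, 0.768 and 0.412 CPM (edgeR adjusted p = 0.023, and 0.084 without poly(I:C) replicate 3). The summed level of the 29 markers, all detected, was 400 to 409 CPM under valproic acid, 355 to 386 CPM under poly(I:C) and 409 to 425 CPM in controls. The call of Spp1 held without any 1 library and with Xist as a covariate.

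Over 8 lists of chromatin genes 8 of 203 tested members were called (3.94%, against 2.60% of all autosomal genes). By edgeR no histone deacetylase, the class of enzymes that valproic acid inhibits, was called among 15 tested (1 at an unadjusted p under 0.05, and 0 called by DESeq2), and Hdac2, the class I enzyme with the highest level, was at 362, 386 and 362 CPM against 374, 364 and 362 CPM. Of 5 linker histone genes 2 were called, both higher. H1f0, a replacement linker histone, was at 537, 590 and 501 CPM against 440, 442 and 438 CPM (1.23-fold, edgeR adjusted p = 0.0068), and its call held without any 1 library. Hist1h1c, a replication-linked member, was at 17.3, 20.8 and 19.7 CPM against 13, 6.69 and 13.1 CPM (edgeR adjusted p = 0.041, and 0.099 without poly(I:C) replicate 2). By edgeR no core histone of 29 was called (2 at an unadjusted p under 0.05, and 1 called higher by DESeq2). Of 36 imprinted genes 3 were called, all higher. Nnat, a paternally expressed membrane protein of neural cells, was at 3456, 3643 and 3378 CPM against 2856, 2893 and 2843 CPM (1.22-fold, edgeR adjusted p = 0.00033), and it was called in every fit that left out 1 library.

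Over 6 stress lists 3 of 120 tested members were called, a share of 2.5% that is near the 2.60% of all autosomal genes. Hmox1, heme oxygenase, was higher, at 15.9, 13.6 and 17.4 CPM against 8.67, 7.62 and 8.59 CPM (1.88-fold, edgeR adjusted p = 0.0018), and Cat, catalase, was lower (edgeR adjusted p = 0.043, and 0.20 without poly(I:C) replicate 2). They were the 2 called members of 20 antioxidant genes. By edgeR no heat shock chaperone of 16 was called (2 at an unadjusted p under 0.05), no p53 target or apoptosis gene of 26 (3) and no immediate early gene of 23 (7), and DESeq2 called 1 chaperone and 0 of the others. Atf4, a factor of the amino acid stress response, was at 121, 121 and 121 CPM against 109, 104 and 108 CPM (1.14-fold, edgeR adjusted p = 0.029, and 0.14 without poly(I:C) replicate 2).

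The controls, which played no part in the contrast itself, lay nearer to poly(I:C) for most of these genes. The control mean was nearer to the poly(I:C) mean in 341 of the 423 called genes (80.6%), against 59.6% of all 16278 autosomal genes. Controls and poly(I:C) each have 2 of 3 libraries with Y-linked RNA and valproic acid has none, and the part of this in the nearness was not tested. It was so in 10 of 10 called genes of cholesterol synthesis, 10 of 10 of glycolysis, 5 of 5 of the proneural list, 7 of 7 of the neuron cytoskeleton, 11 of 15 of the matrix list and 21 of 24 ribosomal protein genes. In 189 of the 423 called genes the control mean lay outside the range between the 2 exposure means. This held for 8 of 10 called glycolysis genes and 15 of 24 ribosomal protein genes. In cholesterol synthesis it held for 4 of 10 and in the matrix list for 1 of 15. Among genes with a large fold several were exceptions, with the control mean nearer to valproic acid. These include Ube2l6, given above, Rps3a2, Rps3a3 and Tpm3-rs7, given below, and the next 4 genes. Ppdpf, a pancreatic progenitor differentiation factor, was at 101, 107 and 91.0 CPM under valproic acid and 37.9, 65.5 and 38.5 CPM under poly(I:C) (2.10-fold, edgeR adjusted p = 0.0059), with controls at 97.2, 69.1 and 67.9 CPM. Kcnmb2, a channel subunit, was at 4.08, 4.42 and 5.62 CPM against 2.06, 2.36 and 2.29 CPM, with controls at 3.94 to 4.78 CPM. Pla2g7, a lipid hydrolase, was lower, at 2.80, 1.92 and 3.14 CPM against 6.17, 6.64 and 8.06 CPM (2.66-fold, edgeR adjusted p = 0.0021), with controls at 3.66 to 4.68 CPM. Decr2, a peroxisomal reductase of fatty acid oxidation, was at 13.5, 8.91 and 12 CPM against 21.2, 23.3 and 23.4 CPM (1.97-fold, edgeR adjusted p = 0.0013), with controls at 13.1 to 16.0 CPM.

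Several of the largest differences came from genes whose level stepped between libraries of the same group. Sox12, a neural transcription factor on chromosome 2, was at 313, 316 and 160 CPM under poly(I:C), at 0.059, 154 and 150 CPM in controls and at 0.175 to 0.233 CPM under valproic acid, so its steps crossed the groups (edgeR adjusted p = 0.0027). Rbck1, a ubiquitin ligase subunit on the same chromosome, differed between the same libraries by less, at 93.0, 92.8 and 71.6 CPM under poly(I:C) and 54.4, 70.3 and 72.4 CPM in controls. It was at or under 54.2 CPM in every valproic acid library (edgeR adjusted p = 0.0033). As with Sox12, control replicate 1 lay near the valproic acid libraries and poly(I:C) replicate 3 near control replicates 2 and 3. Adamts7, a matrix protease on chromosome 9, was at 73.8, 64.0 and 70.4 CPM under valproic acid and 65.4 CPM in control replicate 2, but at 166 to 180 CPM in the other 5 libraries. Among near-identical copies, Rps3a2 and Rps3a3 rose from 2.47 to 3.07 and from 1.52 to 2.0 CPM under poly(I:C) to 147 to 161 and 99.5 to 114 CPM under valproic acid. Summed with Rps3a1, the family was at 672 to 710 CPM against 641 to 647 CPM. Tpm3-rs7, a tropomyosin copy, was at 30.2, 29.9 and 33.8 CPM under valproic acid against 104, 199 and 187 CPM, and its sum with Tpm3 was at 317 to 335 CPM against 325 to 329 CPM. Of the 423 called genes 12 met the rule for steps given under processing, which Rbck1 did not, and the cause of the steps was not tested.

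**Figure D4:**
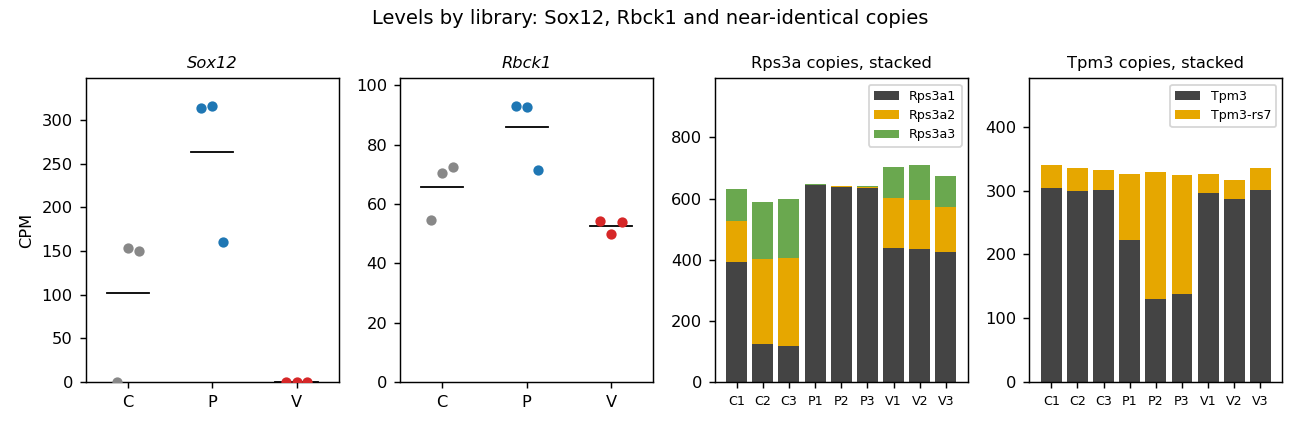
CPM of Sox12 and Rbck1 in each library with the group mean (left panels), and stacked CPM of the Rps3a and Tpm3 copies in each library (right panels), for control (C), poly(I:C) (P) and valproic acid (V). Sox12 steps within control and poly(I:C), and Rbck1 differs between the same libraries by less. The stacked totals of Tpm3 lie at 317 to 340 CPM in all 9 libraries although the share of each copy differs.

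Against poly(I:C) replicate 3, the 1 library of its group with Xist RNA, fewer genes passed the test, and list medians moved to different degrees. With this library alone 29 autosomal genes were called, 24 higher and 5 lower, of which 23 were among the 423. The lone library was assumed to vary like the other groups. The cholesterol median was 0.21 against 0.23 with all 3 libraries, with 3 members called, and that of glycolysis was 0.16 against 0.17, with 0 called. The matrix median was 0.24, the proneural median 0.14, the neuron cytoskeleton median -0.11, the postsynaptic median -0.12 and the ribosomal protein median 0.17. Medians further from those with all 3 libraries were 0.78 against 0.95 for red cells, 0.15 against 0.20 for pericytes and fibroblasts, 0.12 against 0.05 for microglia and -0.17 against -0.12 for channels. The linker histone median turned, at -0.03 against 0.30. With Xist as a covariate 37 autosomal genes were called and with Y-linked expression 102, and the median standard error of the 423 genes rose from 0.06 to 0.09 and 0.08. Idi1 (log2 0.71, edgeR adjusted p = 0.0027), Slc4a1 (1.12, edgeR adjusted p = 0.016) and Spp1 (2.70, edgeR adjusted p = 0.0025) were called against this library, whereas Tpi1, Eomes, Fn1 and Lss were not (edgeR adjusted p = 0.094, 0.051, 0.064 and 0.051). Without a covariate 14 matrix, 5 proneural and 23 ribosomal protein genes were called higher. These counts were 1, 1 and 2 with Xist as a covariate, and 3, 2 and 7 with Y-linked expression. No neuron cytoskeleton, postsynaptic or channel gene was called with either covariate. Sex and exposure cannot be told apart fully in these 6 libraries.

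**Figure D5:**
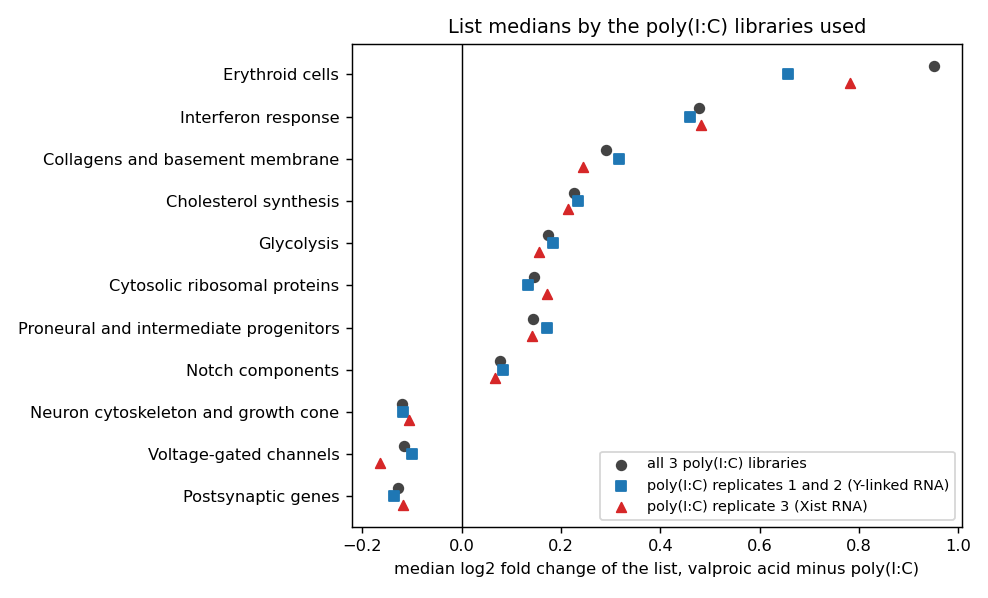
Median log2 fold change of 11 gene lists, valproic acid minus poly(I:C), computed with all 3 poly(I:C) libraries (circles), with replicates 1 and 2, which hold Y-linked RNA (squares), or with replicate 3, which holds Xist RNA (triangles). These 11 lists keep their side of 0 in all 3 sets, whereas some lists that are not drawn, among them linker histones and Notch targets, turn; the same valproic acid libraries enter all 3 values.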

How the data were processed

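RNA was ribosome-depleted and made into libraries from fragmented RNA, per the labels' protocols. Reads were aligned with HISAT2 to GRCm39 (mm39), per the submitters' processing notes. Counter, strand setting and annotation: not given in the sources used here. Reads of overlapping or antisense genes can therefore be mixed. The authors deposited raw read counts per Ensembl gene in 1 table of 56748 genes, and these counts were used as deposited. Symbols, chromosomes and gene spans came from GENCODE release M21, which rests on an earlier build, so no gene coordinates are given from it.

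The filter was filterByExpr in edgeR 4.0.16 and R 4.3.3 (min.count 10, min.total.count 15), which left 17171. Counts were scaled by TMM factors of 0.978 to 1.02. The quasi-likelihood model of edgeR was fitted to all 9 libraries with a mean for each group. The contrast valproic acid minus poly(I:C) was tested two-sided, with Benjamini-Hochberg adjustment over the 17171 genes, and called under 0.05. A standard error is the size of the log2 fold change divided by the square root of F. CPM values use the TMM factors. Chi-square over its degrees of freedom was 3.73 to 6.01 for pairs within groups, above counting error. With 3 libraries per group, precision is limited most for genes of few counts.

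The comparison and the 70 gene lists were chosen with earlier results of these data known, and lists are described by counts and medians without a test. Named were the 15 called autosomal genes that rose most and the 15 that fell most among those with an established symbol, at least 1 CPM on average and groups that did not overlap. Each list gave at most 4 called members, by adjusted p, or where it had none at most 2 members by level, as values; Notch1, Dll1, Hes1 and Hes5 were always named. Some genes met by the rule are not reported here, and genes listed without values are further called members of a list. Promoter sequences are those of RefSeq (GRCm38.p6), and a motif was searched on both strands.

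Alternatives were DESeq2 1.42.0 (Wald test) and its size factors, no filter, at least 1 CPM in 3 libraries, only the 6 libraries, the replicate number as a block, Y-linked expression or Xist as a covariate, other library sizes, adjustment over autosomal genes, poly(I:C) replicate 3 alone, and leaving out each library. Counts of protein-coding genes only, and without genes of stepped level (highest library of a group at least 20 CPM and 1.8 times its lowest after adding 0.5 CPM), were added after the data were seen.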

Additional observations from a re-analysis of the deposited data

Results flagged for a closer look

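Xist, on the X chromosome and outside the autosomal comparison, had a mean of 1030 ± 40.6 CPM (SD, n = 3) in the valproic acid libraries, against 0.133 CPM in the controls and a poly(I:C) mean of 349 CPM that came from replicate 3. It is listed because it lies above the control level in data that the comparison does not use.

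Of 589 genes tested on the X chromosome 19 were called by edgeR between the exposures, beside 423 of 16278 autosomal genes (2.60%). The X chromosome calls are listed for the same reason, and the part of embryo sex in them was not tested.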

How the results depend on the processing

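The 423 called autosomal genes (233 higher, 190 lower) became 987 (512 and 475) with no filter on low counts, 102 (74 and 28) once Y-linked expression was a covariate, 37 (28 and 9) once Xist was one, and 29 (24 and 5) with poly(I:C) replicate 3 alone. Leaving out 1 library each gave 106 to 422 calls, 79 to 236 higher and 27 to 186 lower. DESeq2's Wald test called 600 (316 and 284), of which 391 were among the 423, and the 6 libraries alone 330 (192 and 138). With the replicate number as a block 321 were called (195 and 126), 300 of them among the 423. Same-numbered libraries deviated from their group means with correlations of -0.126 to 0.0709, and differently numbered ones with -0.135 to 0.117. No pairing by number was seen, but with 3 libraries a group such correlations cannot exclude one. Over DESeq2 size factors, 1 CPM in 3 libraries, other library sizes and autosomal adjustment the count was 424 to 427. It was 384 for protein-coding genes and 411 without stepped genes, both chosen after seeing the data. Fewer libraries are tested where one is left out, and the cause of the other shifts was not tested. Of 111 named called genes 50 kept their call without poly(I:C) replicate 3 and 39 without poly(I:C) replicate 2. None reversed under any alternative. With 3 libraries a group, small differences in genes of few counts were not detectable at this depth.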

Other observations

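Most of the called pseudogenes were higher under valproic acid. Of the 423 called autosomal genes 384 were protein-coding and 23 were pseudogenes, of which 22 were higher and 1 was lower under valproic acid. The pseudogenes tested were not counted, so their called share cannot be set beside the 2.60% of all autosomal genes. Like the Rps3a copies, some stepped between libraries of 1 group: Rps2-ps10 was at 241, 2.74 and 233 CPM under valproic acid and at 2.0 to 2.52 CPM under poly(I:C), with controls at 212 to 440 CPM. Rps26-ps1, Gm10020, Gm14150 and Gm3226, all called higher, also stepped within the valproic acid group.

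Further called genes outside the lists were looked up after their values were seen. Glo1, a glyoxalase that detoxifies a by-product of glycolysis, was at 168, 208 and 165 CPM under valproic acid, 110, 104 and 136 CPM under poly(I:C) and 162 to 169 CPM in controls (edgeR adjusted p = 0.0025). Tef and Nr1d2, transcription factors of the circadian output, were both higher under valproic acid: Tef was at 68.5, 68.8 and 67.6 CPM against 54.4, 49.9 and 54.5 CPM (edgeR adjusted p = 0.0016) and Nr1d2 at 20.1, 21.1 and 19.5 CPM against 14.3, 12.8 and 16.0 CPM (edgeR adjusted p = 0.015). Lgals1, a galactose-binding lectin, was at 35.2, 34.3 and 35.0 CPM against 24.3, 24.8 and 26.4 CPM (edgeR adjusted p = 0.0023). Serpinh1, the collagen chaperone, was at 215, 205 and 220 CPM against 188, 177 and 186 CPM (edgeR adjusted p = 0.0097).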
